A study of Mus musculus with 4 samples.

Results

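Among 8 identity genes of the thymic tuft cell, 2 were lower at an unadjusted threshold in mTEC libraries labelled *Sirt6* cKO than in those labelled WT. After adjustment over all genes, none passed in edgeR and DESeq2 called 1 lower, *Avil*. *Avil* was 2.08-fold lower and *Lrmp* 1.83-fold lower in the libraries labelled *Sirt6* cKO, while the factors *Pou2f3* and *Gfi1b* and the kinase gene *Dclk1* had positive fold changes that did not pass the test. The 8 symbols were *Pou2f3*, *Gfi1b*, *Dclk1*, *Avil*, *Chat*, *Il25*, *Il17rb* and *Lrmp*, taken by name as the factors and the structural or effector markers of these cells. All 8 were among the 23337 genes of the deposited count table, and all 8 were among the 18547 genes that passed the filter on low counts.

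The study asked what loss of the deacetylase *Sirt6* in the thymic epithelium does to medullary thymic epithelial cells (mTECs). mTECs were sorted as CD45- EpCAM+ UEA-1+ Ly51- cells from the thymus of C57BL/6 mice aged 4 weeks, and RNA-seq was run on 2 libraries of each genotype. In the *Sirt6* cKO mice a *Foxn1*-Cre transgene, active in thymic epithelium, acts on *Sirt6* loxp/loxp alleles, and the labels write this genotype as Sirt6-/-. The WT mice were littermates or mice of the same age without the Cre. Per the study's methods the samples of a genotype were isolated independently and in parallel. How many animals gave each is not given in the sources used here.

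Totals ran from 61102704 to 65907745 counts per library, and 18608 to 19475 genes had a count in each. *Sirt6* itself had 622 and 755 counts in the libraries labelled WT and 882 and 835 in those labelled *Sirt6* cKO. Its log2 fold change was 0.37 (SE 0.32, edgeR adjusted p = 0.800). Gene-level counts of the targeted gene were thus not lower under the *Sirt6* cKO label, so libraries are named by their labels throughout. Counts per gene do not show which part of *Sirt6* the reads cover, so they cannot decide whether the targeted part was lost. The 10 mTEC markers summed to 10336 and 10844 CPM (counts per 1000000 counts of the library) under the WT label. Under the *Sirt6* cKO label they summed to 11164 and 11037 CPM. *H2-Aa* alone held most of each sum, 7527 and 7123 CPM against 8228 and 7408 CPM. *Ccl21a* was lower under the *Sirt6* cKO label, and *Epcam*, *Aire* and *Cd80* were higher, at an unadjusted p under 0.05 in edgeR. Summed markers of cortical epithelium (701 to 1067 CPM), fibroblasts (625 to 726 CPM) and endothelium (80.3 to 109 CPM) overlapped between the labels. Of these markers, the cortical *Ly75* was higher and the fibroblast *Lum* lower at that threshold, and the others did not pass.

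Tuft cells are chemosensory epithelial cells, known from gut and airway and present in the thymic medulla as a terminal mTEC type. They carry the bitter and sweet taste cascade, make the type 2 cytokine IL-25, acetylcholine and eicosanoids, and depend on the POU factor POU2F3. In the thymus they are known to act on type 2 innate lymphoid cells and on natural killer T cells that make IL-4. In bulk RNA of sorted mTECs, fewer tuft cells and less RNA of a gene per tuft cell cannot be told apart.

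RefSeq (GRCm38.p6) gave the 250 bases before the start site for 5 of the 8 genes, *Gfi1b*, *Dclk1* (with a pair of start sites), *Avil*, *Il17rb* and *Chat*. The windows of *Avil* and *Chat*, whose CPM did not overlap between the groups, are shown with those of *Gfi1b* and *Il17rb*, whose CPM did. They run 5′ to 3′ on the strand of the gene, so that the bases beside each pattern can be read. Capitals mark every motif match found on either strand. RefSeq and GENCODE place the start of *Chat* differently, and the last 80 bases of its window lie inside the gene as GENCODE annotates it, as does the whole window of the second *Dclk1* start site.
*Avil* (chr10:127000459-127000708, plus strand): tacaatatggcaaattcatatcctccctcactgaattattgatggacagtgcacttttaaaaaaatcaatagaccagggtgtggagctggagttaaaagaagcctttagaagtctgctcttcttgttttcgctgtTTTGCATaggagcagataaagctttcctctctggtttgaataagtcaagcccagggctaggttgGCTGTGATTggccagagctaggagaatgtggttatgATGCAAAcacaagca
*Chat* (chr14:32465910-32466159, minus strand): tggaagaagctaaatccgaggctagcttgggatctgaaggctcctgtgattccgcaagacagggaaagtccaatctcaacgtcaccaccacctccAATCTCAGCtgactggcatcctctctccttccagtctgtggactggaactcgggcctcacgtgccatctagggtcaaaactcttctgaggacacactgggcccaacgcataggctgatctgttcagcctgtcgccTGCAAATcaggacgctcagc
*Gfi1b* (chr2:28621983-28622232, minus strand): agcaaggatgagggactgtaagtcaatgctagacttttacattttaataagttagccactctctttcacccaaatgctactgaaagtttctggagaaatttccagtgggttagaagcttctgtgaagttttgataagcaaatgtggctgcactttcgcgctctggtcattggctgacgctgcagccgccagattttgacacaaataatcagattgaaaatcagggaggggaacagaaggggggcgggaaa
*Il17rb* (chr14:30008897-30009146, minus strand): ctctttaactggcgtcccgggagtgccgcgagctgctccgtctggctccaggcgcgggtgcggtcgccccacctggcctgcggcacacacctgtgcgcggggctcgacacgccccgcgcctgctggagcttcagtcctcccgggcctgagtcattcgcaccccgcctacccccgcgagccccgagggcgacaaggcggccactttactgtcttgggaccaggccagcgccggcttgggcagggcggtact

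The POU octamer ATGCAAAT, which POU2F factors bind, was in none of the 6 windows, against 1.6% of 32851 RefSeq windows of this length. The GFI1 core AATCNNNGC, bound by GFI1 and GFI1B, was in 8.87% of all windows. It was in the *Avil* window from -51 to -43 on the minus strand and in the *Chat* window from -155 to -147 on the plus strand, counted from the start site. The PU box GAGGAAGT, bound by SPI1 and SPIB, was in 2.44% of all windows and in none of the 6. After the windows had been read, the octamer was also searched without its last base (ATGCAAA, 4.12% of all windows) and without its first base (TGCAAAT, 3.56%), words that overlap the octamer itself. *Avil* held the former at both -15 to -9 (plus strand) and -115 to -109 (minus strand), *Chat* held the latter at -20 to -14 (plus strand, inside the GENCODE gene), and the windows of *Gfi1b*, *Dclk1* and *Il17rb* held neither. Because the shortened words were chosen after reading these windows, their shares over all windows give no independent comparison. Such matches describe letters, not bound sites.

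Between the libraries labelled *Sirt6* cKO and those labelled WT, 2 of the 8 genes were lower at an unadjusted p under 0.05 (edgeR quasi-likelihood test), *Avil* and *Lrmp*, and 0 were higher. Among all genes tested, 3.32% were lower and 5.27% higher at that threshold. The 8 genes were chosen with earlier results of these data known, so this comparison is not independent. None of the 8 passed after Benjamini-Hochberg adjustment over all genes, which 0.00539% of genes (1 gene) did. DESeq2 called 1 of the 8, *Avil*, lower after adjustment, against 0.795% of its genes. The median log2 fold change of the 8 genes was -0.45, with 5 below zero and 3 above, and that of all genes tested was -0.0047. Groups did not overlap in CPM for 4 genes lower under the *Sirt6* cKO label (*Avil*, *Chat*, *Il25*, *Lrmp*) and for 1 higher (*Pou2f3*), and 20.3% and 21.6% of all genes separated in these directions.

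**Figure D1:**
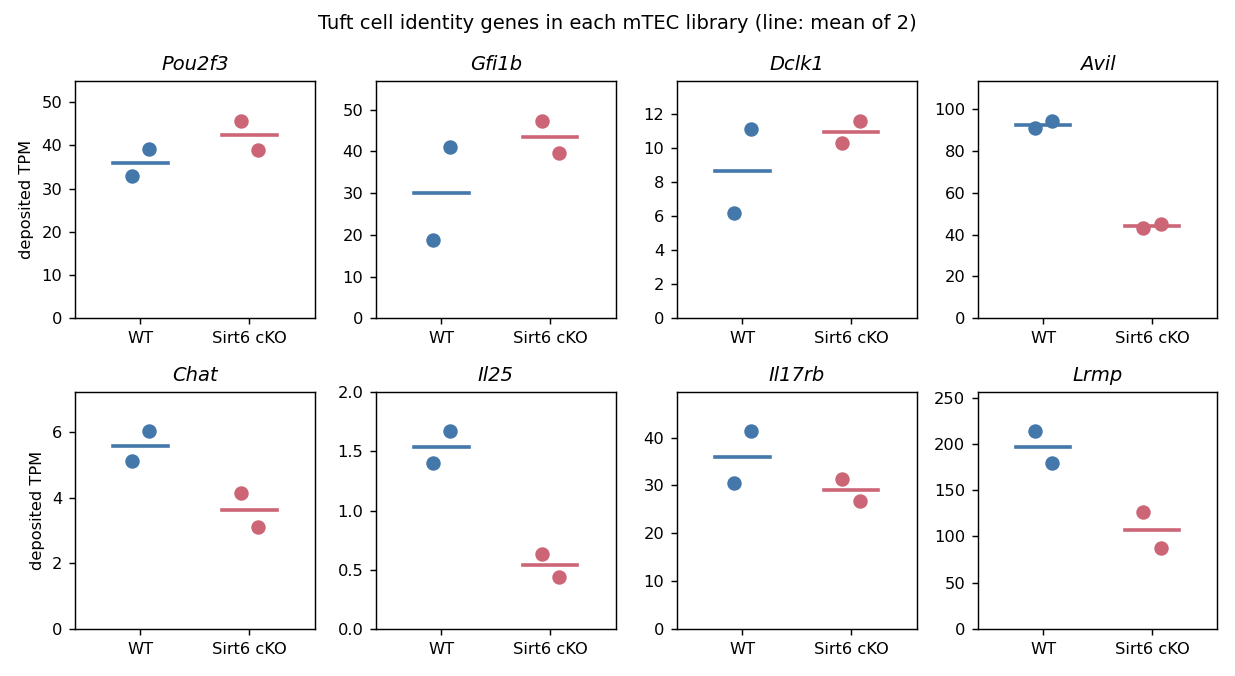
Deposited TPM (y axis, from 0, a level per transcript length) of each identity gene in the libraries labelled WT and *Sirt6* cKO, with 1 point per library and a line at the mean of 2. *Avil*, *Chat*, *Il25* and *Lrmp* lie lower in both libraries labelled *Sirt6* cKO, while the first WT library is the lowest point for *Gfi1b* and *Dclk1*.

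*Pou2f3* (chr9:43123939-43210369, minus strand, GRCm38) encodes the factor without which tuft cells do not form. It had 2512 and 2810 counts under the WT label and 3196 and 2866 under the *Sirt6* cKO label, or 33.0 and 39.1 TPM (transcripts per 1000000, a level per length) against 45.7 and 38.9 TPM. The groups were apart in CPM, at 41.3 ± 4.09 against 48.8 ± 5.85 CPM (SD, n = 2), but their TPM ranges overlapped. The log2 fold change was 0.24 (SE 0.24, 95% interval -0.37 to 0.85, edgeR adjusted p = 0.838), so a decrease beyond 0.37 on the log2 scale lies outside the interval. With any 1 library left out it ran from 0.12 to 0.35.

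*Gfi1b* (chr2:28609450-28621982, minus strand) encodes a zinc finger repressor of tuft cells that also acts in platelet and red cell precursors. Its counts were 1003 in WT 1 and 2091 in WT 2, against 2330 and 2056 under the *Sirt6* cKO label (18.7 and 41.1 against 47.4 and 39.6 TPM). WT 1 stood below the other libraries, and the groups overlapped. The log2 fold change of 0.55 (SE 0.42, adjusted p = 0.769) was 0.08 without WT 1 and 1.21 (unadjusted p = 0.0230 in edgeR) without WT 2, so the choice of WT library set its size. The summed level of 9 megakaryocyte and erythroid markers was 11.2 CPM in WT 1, 29.9 CPM in WT 2, and 15.5 and 15.9 CPM under the *Sirt6* cKO label, and its part in the level of *Gfi1b* was not tested.

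*Dclk1* (chr3:55242364-55539068, plus strand) encodes a microtubule-associated kinase used to stain tuft cells. Its counts were 1287 in WT 1 and 2092 in WT 2 against 1865 and 2333 under the *Sirt6* cKO label (6.17, 11.1, 10.3 and 11.6 TPM). As with *Gfi1b*, WT 1 was the low library, and the groups overlapped. The log2 fold change was 0.36 (SE 0.34, 95% interval -0.50 to 1.21, adjusted p = 0.824), and it was 0.01 without WT 1 and 0.78 without WT 2.

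*Avil* (chr10:127000709-127020994, plus strand) encodes advillin, an actin-bundling protein of the villin family found in the apical bundles of tuft cells and in sensory neurons. It had 8315 and 8186 counts under the WT label and 3639 and 4019 under the *Sirt6* cKO label, or 90.8 and 94.6 TPM against 43.3 and 45.3 TPM. Libraries of a label lay close together and the labels far apart. From 128 ± 1.13 to 61.5 ± 1.67 CPM (SD, n = 2), *Avil* fell by 1.06 on the log2 scale (SE 0.19, 95% interval -1.53 to -0.58). Its unadjusted p = 0.00193 was the 57th smallest of 18547 in edgeR, with adjusted p = 0.541 in edgeR and adjusted p = 5.43e-04 in DESeq2. The change ran from -1.14 to -1.03 over 12 alternatives. Of its annotated exonic bases, 165 (4.86%) are also exonic in *Tsfm* on the opposite strand, a gene with 285 to 391 counts per library. Summed neural markers overlapped, at 70.1 and 65.8 CPM against 61.6 and 70.3 CPM.

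*Lrmp* (chr6:145115653-145174934, plus strand) encodes a membrane protein of the endoplasmic reticulum, first described in lymphocytes and abundant in tuft and taste cells. It was the most abundant of the 8 per length. Counts were 14925 and 11849 under the WT label against 8077 and 5952 under the *Sirt6* cKO label, or 214 and 180 TPM against 126 and 88.0 TPM. Both WT libraries stood above both others, with a wider spread within each label than for *Avil*. *Lrmp* fell by 0.87 on the log2 scale (SE 0.25, 95% interval -1.49 to -0.25, unadjusted p = 0.0150, adjusted p = 0.541 in edgeR and adjusted p = 0.0844 in DESeq2). Without WT 1 the change was -0.74 (unadjusted p = 0.0608 in edgeR) and without *Sirt6* cKO 2 it was -0.64 (unadjusted p = 0.0582), neither past the threshold. On the opposite strand *Casc1* shares 101 exonic bases (2.48%) and had 73 to 236 counts. The summed levels of the lymphocyte lists overlapped between the labels. For 10 T cell markers the sum was 1516 and 1087 CPM under the WT label against 1364 and 901 CPM. Of these 10, 7 had a log2 fold change below zero (median -0.42). In CPM, 4 of the 10 were apart and lower under the *Sirt6* cKO label and 0 were apart and higher. Among all genes, 20.3% and 21.6% separated in these directions. For 7 B cell markers the sum was 230 and 194 CPM against 240 and 194 CPM. Of these markers only *Blk* passed the unadjusted threshold in edgeR, and it was higher under the *Sirt6* cKO label. The CD45- EpCAM+ gate is meant to remove lymphocytes and other blood cells, and *Ptprc*, which encodes CD45, had 16820 to 26127 counts per library. Their part in the level of *Lrmp* was not tested.

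*Chat* (chr14:32408203-32465989, minus strand) encodes choline acetyltransferase, which makes acetylcholine. It had 434 and 484 counts under the WT label and 323 and 256 under the *Sirt6* cKO label (5.12 and 6.03 against 4.15 and 3.11 TPM). Although the groups did not overlap, the log2 fold change of -0.61 (SE 0.42, 95% interval -1.66 to 0.45, adjusted p = 0.741) did not pass.

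*Il25* (chr14:54932695-54935837, plus strand) encodes the alarmin cytokine that tuft cells secrete, and it was the scarcest of the 8. Only 46 and 51 reads under the WT label and 19 and 14 under the *Sirt6* cKO label were counted for it, 1.40 and 1.67 against 0.636 and 0.443 TPM. The groups were apart, and the log2 fold change of -1.49 was the lowest of the 8. Its SE was 1.29 and its 95% interval ran from -4.73 to 1.75 (adjusted p = 0.802), and its unadjusted p was 0.0592 to 0.586 over the 12 alternatives.

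*Il17rb* (chr14:29996135-30008896, minus strand) encodes the receptor chain that binds IL-25, on tuft cells as well as on type 2 lymphocytes. Its counts were 1904 and 2431 under the WT label and 1785 and 1610 under the *Sirt6* cKO label (30.6 and 41.3 against 31.3 and 26.7 TPM). The TPM and CPM ranges overlapped, but the raw counts did not. The log2 fold change was -0.30 (SE 0.28, 95% interval -1.0 to 0.41, edgeR adjusted p = 0.820). *Actr8* on the opposite strand shares 141 exonic bases (3.80%) and had 6642 to 9191 counts per library.

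**Figure D2:**
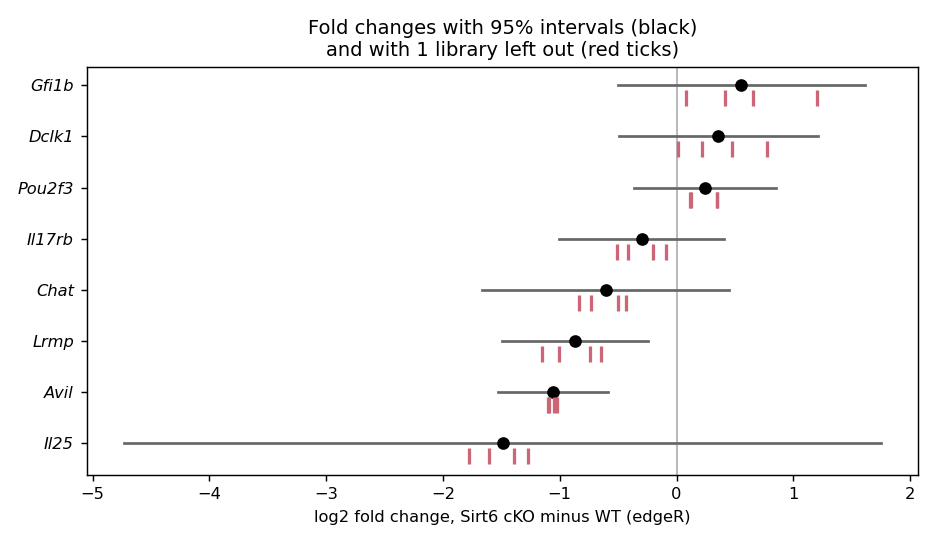
Log2 fold change of each identity gene (x axis, *Sirt6* cKO minus WT, edgeR), with the 95% interval as a line and the values with 1 library left out as red ticks. The intervals of *Avil* and *Lrmp* lie below zero, those of the other 6 genes cross it, and the ticks of *Gfi1b* spread from 0.08 to 1.21.

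Because *Pou2f3* marks the lineage, each gene was also set against the *Pou2f3* reads of its own library, which needs no scaling between libraries. Per 100 *Pou2f3* reads, *Avil* had 331 and 291 reads under the WT label and 114 and 140 under the *Sirt6* cKO label. *Lrmp* had 594 and 422 against 253 and 208, and *Il17rb* had 75.8 and 86.5 against 55.9 and 56.2. The ratio of *Chat* was 17.3 and 17.2 against 10.1 and 8.93, and that of *Il25* was 1.83 and 1.81 against 0.594 and 0.488. All 5 of these ratios were lower in both libraries labelled *Sirt6* cKO, by 0.53 (*Il17rb*) to 1.76 (*Il25*) on the log2 scale. *Pou2f3* itself had a positive log2 fold change of 0.24 that did not pass, and this lowers every ratio. *Il17rb*, which overlapped between the labels in CPM, was apart as a ratio. *Gfi1b* (39.9 and 74.4 against 72.9 and 71.7) and *Dclk1* (51.2 and 74.4 against 58.4 and 81.4) overlapped between the labels. Of all other genes tested, 30.2% had a ratio to *Pou2f3* that did not overlap and was lower under the *Sirt6* cKO label, and the ratios carry no test.

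**Figure D3:**
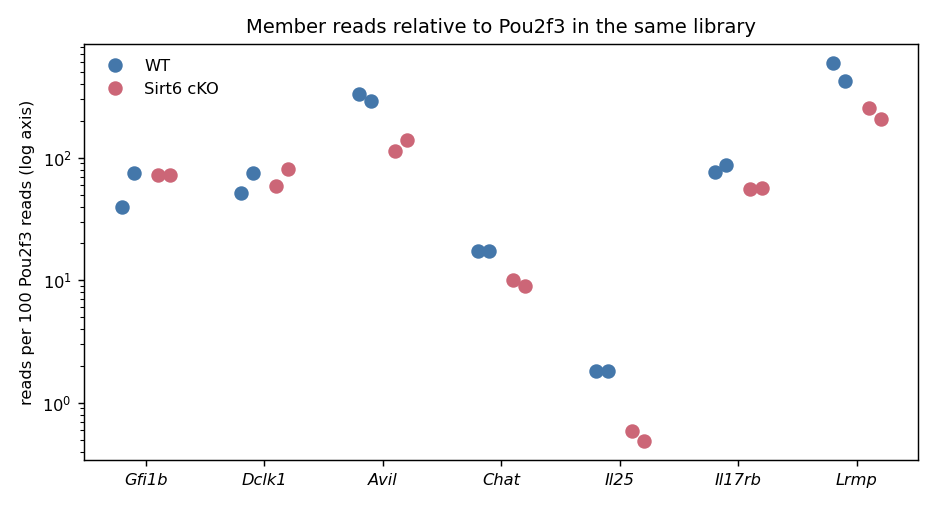
Reads of 7 identity genes per 100 *Pou2f3* reads in the same library (y axis, log scale), with 1 point per library, WT in blue and *Sirt6* cKO in red. *Gfi1b* and *Dclk1* overlap between the labels, and the other 5 genes lie lower in both libraries labelled *Sirt6* cKO.

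By deposited TPM, which is per transcript length, *Lrmp* was highest and *Avil* next under both labels, and *Dclk1*, *Chat* and *Il25* came last in that order. Under the WT label *Avil* at 92.7 TPM stood apart from *Pou2f3* (36.0), *Il17rb* (36.0) and *Gfi1b* (29.9 TPM), whose ranges overlapped as neighbours. Under the *Sirt6* cKO label *Avil* at 44.3 TPM was not apart from *Gfi1b* (43.5 TPM), nor *Gfi1b* from *Pou2f3* (42.3 TPM), and *Il17rb* at 29.0 TPM lay below these. Set among all genes, *Avil* was above 91.0% of genes under the WT label and above 82.6% under the *Sirt6* cKO label, while *Gfi1b* was above 77.2% and 82.4%. The summed TPM of the 8 genes was 400 and 414 under the WT label and 309 and 254 under the *Sirt6* cKO label. *Lrmp* and *Avil* held 76.2% and 66.1% of that sum in the former and 54.8% and 52.6% in the latter.

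Across the 4 libraries the pattern of *Chat* was nearest to that of *Il17rb*, with a root-mean-square distance of 0.19 between their centred log2 CPM. *Avil* and *Lrmp* (0.25) and *Gfi1b* and *Dclk1* (0.25) were also close, and *Gfi1b* and *Il25* were farthest apart (1.08). Among all genes tested, the 5 patterns nearest to *Pou2f3* were those of *0610009O20Rik* (0.015), *Ankrd33b* (0.019), *Mlh3* (0.019), *Pom121* (0.020) and *Ubap2* (0.026). No identity gene was among them, the nearest being *Dclk1* at rank 4792. These distances describe 4 libraries and carry no test.

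Beyond the identity genes, 43 other genes of tuft cell biology were in the table and 40 were tested. At an unadjusted p under 0.05, 15 fell, 1 rose and 24 did not pass, against 3.32% lower and 5.27% higher among all genes. These genes were chosen with earlier results of these data known, so the comparison with all genes is not independent. Their median log2 fold change was -0.54, and after adjustment 0 passed in edgeR while DESeq2 called 5 lower. With 1 library left out the count of 15 lower genes in edgeR became 12 without WT 1, 7 without WT 2, 8 without *Sirt6* cKO 1 and 6 without *Sirt6* cKO 2.

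In the taste cascade, 5 of its 7 tested genes were lower (median log2 fold change -1.09). *Gnb3*, the G protein beta subunit of this cascade, had 18186 and 20275 counts under the WT label and 6421 and 7662 under the *Sirt6* cKO label, and it fell by 1.40 on the log2 scale (SE 0.18). *Rgs13*, a regulator of G protein signaling, had 2666 and 2947 counts against 530 and 711 and fell by 2.13 (SE 0.29). For both genes the labels were apart in every library. *Gnat3* (gustducin), the cation channel gene *Trpm5* and the phospholipase gene *Plcb2* also fell, by 2.99, 0.99 and 0.71, while *Tas1r3* (-1.09) and *Itpr2* (0.04) did not pass. *Gng13* was too low to test, with 5 and 18 counts against 0 and 0.

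All 5 genes of eicosanoid synthesis fell at the unadjusted threshold in edgeR (median -1.15), which 3.32% of all genes did. After adjustment 0 of the 5 passed in edgeR and DESeq2 called 1 lower, *Alox5*. *Alox5*, which makes leukotriene precursors, had 1437 and 2301 counts against 719 and 374 and fell by 1.71 (SE 0.48), and *Hpgds*, the prostaglandin D synthase of blood cells, had 5264 and 3975 against 1895 and 2884 and fell by 0.90 (SE 0.29). *Alox5ap*, *Ltc4s* and *Ptgs1* fell by 1.15, 1.56 and 0.82, near the threshold (unadjusted p = 0.0402, 0.0491 and 0.0426 in edgeR). Mast cells and macrophages, which the CD45- EpCAM+ gate is meant to remove, also express this pathway. The summed level of 8 macrophage and dendritic cell markers was 4888 and 2968 CPM under the WT label. It was 1910 and 2034 CPM under the *Sirt6* cKO label, with *Lyz2*, *Cd68* and *Emr1* lower and 5 not passing. *Lyz2* alone held most of each sum, 4647 and 2815 CPM against 1778 and 1906 CPM. For 6 mast cell and basophil markers the sum was 127 and 112 against 77.5 and 81.9 CPM, with *Cpa3* lower and 5 not passing. Neither sum overlapped between the labels, and no marker of these lists was at 3 or fewer counts in all libraries. Their part in the eicosanoid genes, in *Fyb* below, and in the identity genes was not tested.

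Among 8 tested surface and adaptor genes, 3 fell (median -0.54). The tyrosine kinase gene *Bmx* had 4025 and 5533 counts against 1938 and 1822 and fell by 1.29 (SE 0.27). The adaptor genes *Sh2d7* and *Fyb* fell by 1.32 and 0.51. Of the 4 other tuft cell factors in the table, only *1810046K07Rik* (*Pou2af2*, a coactivator of POU2F3) and *Gm684* (*Pou2af3*) had enough counts. *1810046K07Rik* had 585 and 626 counts against 276 and 236 and fell by 1.19 (SE 0.39), and *Gm684*, with 530 and 786 against 279 and 428, had a log2 fold change of -0.86 that did not pass. *Hmx2* and *Hmx3* had 0 to 32 counts.

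Of 5 cytoskeletal genes, *Espn* (espin, an actin bundler) alone fell, by 1.29 (SE 0.51), with 3772 and 6978 counts against 1253 and 3053. *Vil1*, the villin gene related to *Avil*, had a log2 fold change of -0.01, and the keratin genes *Krt18* (-0.40) and *Krt8* (-0.33) and *Nebl* (1.22) did not pass. In the IL-25 circuit 0 of 9 genes passed in edgeR in either direction, also at the unadjusted threshold, and DESeq2 called 0 after adjustment. Its most abundant gene, *Il4ra*, the receptor chain shared by IL-4 and IL-13, had 12855 and 20135 counts against 24337 and 24564, a log2 fold change of 0.62. Of 4 genes of acetylcholine handling, *Ache*, which breaks acetylcholine down, rose by 0.70 (SE 0.21) from 7916 and 10392 counts to 14147 and 14556, while *Slc18a3*, *Slc5a7* and *Bche* did not pass. None of the 6 markers of innate lymphoid and natural killer T cells passed, and their sum was 202 to 230 CPM over the 4 libraries.

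**Figure D4:**
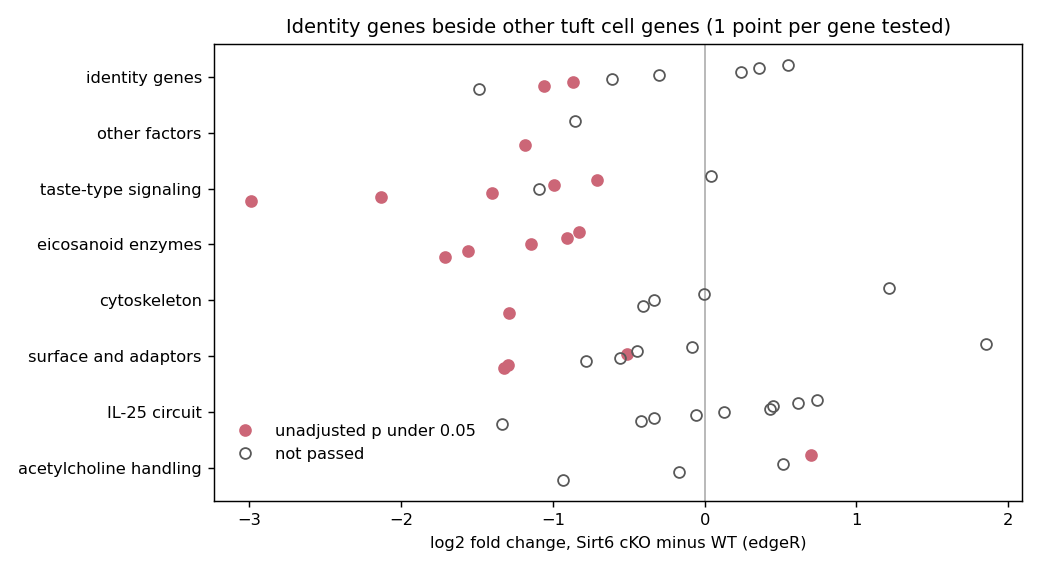
Log2 fold change (x axis, *Sirt6* cKO minus WT, edgeR) of each tested gene, with 1 row for the identity genes and 1 for each group of other tuft cell genes, where filled points passed an unadjusted p of 0.05. All 5 eicosanoid genes and 5 of 7 taste genes are filled and left of zero, as are 2 of the 8 identity genes, and *Ache* is the filled point to the right.

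Genes related in sequence to the 8 gave 1 of 16 tested lower, 2 higher and 13 not past the unadjusted threshold. Among all genes, 3.32% were lower and 5.27% higher, and counts this small cannot be told from those shares. *Il17a*, a relative of *Il25* and a cytokine of lymphocytes, had 550 and 502 counts under the WT label and 80 and 70 under the *Sirt6* cKO label and fell by 2.75 on the log2 scale (SE 0.49). *Vill*, a relative of *Avil*, rose by 1.10 (SE 0.31), with 478 and 540 counts against 1012 and 1095, and *Il17rd*, a relative of *Il17rb*, rose from 12 and 0 counts to 143 and 269. *Pou2f1*, *Pou2f2*, *Gfi1*, *Dclk2*, *Dclk3* and *Mrvi1* had log2 fold changes from -0.35 to 0.58, none past the test. At most 4.02% of the 50-base words in the transcripts of any of the 8 genes occurred in another gene.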

How the data were processed

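RNA-seq counts of 4 mTEC libraries were analysed. Reads were trimmed, aligned to mm10 and quantified by the authors, and the submitters' processing notes name HISAT2 2.1.0 and StringTie 1.3.3. Gene annotation and the use of strand are not given in the sources used here. The deposited counts are whole numbers per gene symbol without normalization. The deposited TPM, a level per transcript length scaled to 1 total in each library, come as 1 file per library and are recorded as a score because each file ends in 1 line that names no gene and holds the total, which was left out.

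From the counts, all genes were tested with edgeR 4.0.16 in R 4.3.3 (TMM, filterByExpr with a minimum count of 10 and minimum total of 15, glmQLFit, glmQLFTest, group as the only term), with Benjamini-Hochberg adjustment over 18547 genes at 0.05. The biological coefficient of variation was 0.557. CPM used the TMM factors. The SE is the log2 fold change divided by the square root of the F statistic, and intervals use edgeR's degrees of freedom. Exact permutation of 2 against 2 libraries cannot pass, so none was used. Alternatives were DESeq2 1.42.0, other filters and scalings, limma 3.58.1 on log2 TPM, a replicate block and each library left out.

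Besides the 8 genes and *Sirt6*, the text names of each list the 2 genes of smallest p in each direction past the unadjusted threshold, or else the most abundant. It adds, chosen after their values were seen, members of counts of 5 or fewer and a few that did not pass. The 5 genes nearest to *Pou2f3* follow a fixed rule. The members and lists were chosen with earlier results of these data known. *Siglecf* and *Adgre1* were matched as *Siglec5* and *Emr1*. Positions and exon overlaps are from GENCODE on GRCm38, the assembly of mm10. A gene of the lists is not reported here and was left out of their counts. The edgeR fit was tested on simulated counts with known fold changes and a common dispersion for all genes.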

Additional observations from a re-analysis of the deposited data

How the results depend on the processing

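The alternatives were run for the fold changes, counts, median and order of the identity genes and for the count of other tuft cell genes, and none of these changed direction. Single genes of other lists and the ratios to *Pou2f3* were not recomputed. With DESeq2, 1 identity gene (*Avil*) passed after adjustment, against 0 in edgeR, where 2 were lower at the unadjusted threshold. With 1 library left out, 1 to 2 identity genes were lower at the unadjusted threshold, since *Lrmp* did not pass without WT 1 or without *Sirt6* cKO 2, and 6 to 12 other tuft cell genes were, against 15 with all libraries. Under the other settings that count was 13 to 17. Leaving out a library leaves 1 label with a single library, assumed to vary like the other label, and reduces what can pass. *Gfi1b* passed only without WT 2. The median of the 8 genes ran from -0.63 to -0.30. With CPM per kilobase of annotated exons, and with WT 1 left out, 6 of the 8 genes kept their rank by level.

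Replicate numbers are shared by the labels, which do not say whether libraries of the same number are paired. The deviations of the libraries numbered 1 correlated at -0.054 across genes, a value that cannot decide whether they were paired. With a replicate block, 2 identity genes and 13 other tuft cell genes were lower at the unadjusted threshold, and 0 identity genes passed after adjustment. Precision is limited by 2 libraries per label. For *Il25*, with 14 to 51 reads, the unadjusted p was 0.296 in edgeR and 0.0592 with genes above 0.1 TPM in all libraries only, and the cause was not tested.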

Other observations

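Of 7 genes that mark microfold-like mTECs, another terminal mTEC type, 1 rose and 1 fell at the unadjusted threshold. Among all genes, 5.27% were higher and 3.32% lower at that threshold. *Spib*, a factor of microfold cells, had 33907 and 32819 counts under the WT label and 67018 and 74018 under the *Sirt6* cKO label. It rose by 1.13 on the log2 scale (SE 0.14, adjusted p = 0.34 in edgeR and adjusted p = 4.23e-06 in DESeq2). *Gp2*, a receptor for bacterial pili, had 35724 and 34993 counts against 16676 and 20420. It fell by 0.88 (SE 0.16, adjusted p = 0.541 in edgeR and adjusted p = 0.00355 in DESeq2). The other 5 (*Ccl20*, *Tnfaip2*, *Ccl9*, *Sox8*, *Ccl6*) had log2 fold changes from -0.36 to 0.24 and did not pass.

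After the values had been seen, the genes nearest in pattern to *Avil* over the 4 libraries were also listed. They were *Scnn1b*, *Rpap2*, *Cd40lg*, *Hist1h4j* and *Ibsp*, at root-mean-square distances of 0.022 to 0.053 in log2 CPM, with log2 fold changes from -1.13 to -1.03. Of the identity genes, *Lrmp* ranked 459, *Il25* 537 and *Chat* 684 among all genes tested.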
